A study of Mus musculus with 13 samples.

Results

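The cells described here are the spinal cord microglia of mice at the peak of experimental autoimmune encephalomyelitis (EAE), set against those of healthy control mice. EAE is a model of multiple sclerosis in which immune cells attack myelin. The members were chosen by the deposited annotation, as all cells of the class microglia in libraries sorted as resident cells. They were 7345 of the 7472 cells in those 5 libraries, and the whole series held 22148 cells, 17670 of them annotated as microglia. The controls gave 6155 members in 3 libraries (1769, 1149 and 3237 cells in controls a, b and c). The peak gave 1190 members in 2 libraries (486 and 704 cells in peak libraries a and b). Expression was measured by droplet single-cell RNA sequencing, in which each captured transcript is counted once by its unique molecular identifier (UMI).

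Every mouse, diseased or healthy, carried Cx3cr1YFPCreERT2:R26tdTomato. The first allele puts a yellow fluorescent protein and a tamoxifen-inducible Cre recombinase into the Cx3cr1 locus, and the second is a tdTomato reporter in Rosa26 that Cre switches on. Long-lived microglia keep the red label while blood monocytes are replaced by unlabelled cells, which is how resident and infiltrating myeloid cells are told apart in such mice. The Cre is driven by a gene that microglia, other tissue macrophages and monocytes all use. Because the first of these alleles sits in Cx3cr1, the counts of that gene come from an altered locus in all groups. Ages, sexes, tamoxifen timing and the way EAE was induced are not given in the sources used here. The labels call the libraries of a group biological replicates.

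Microglia are the resident macrophages of the brain and spinal cord. In the healthy tissue they survey their surroundings through receptors such as P2ry12, keep their identity under transforming growth factor beta (TGF-beta) and the transcription factor Sall1, and hold little MHC class II. Interferon gamma, a product of T cells and natural killer cells, acts through the receptor Ifngr1/Ifngr2, the kinases Jak1 and Jak2 and transcription factors, which in turn switch on guanylate-binding proteins, chemokines for T cells and the machinery of antigen presentation.

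The UMIs of all members of a library were summed per gene, since cells of 1 mouse are not replicates, and the quasi-likelihood F test of edgeR was run on these sums, with p-values adjusted by Benjamini-Hochberg. Levels of single genes are in counts scaled to a fixed library total (CPM) scaled by TMM (edgeR's trimmed mean of M-values), always in the order control a, b, c and then peak a, b. Log2 fold changes are peak minus control, ± SE, and a gene was called at an adjusted p under 0.05. The SE is the size of the log2 fold change divided by the square root of the F statistic. It was not estimated separately and may be too small for genes with few UMIs in a group. The members held 6794793, 5415670 and 10330145 UMIs in the controls and 4196375 and 6332115 at the peak. A median peak member held 8446.5 or 8521 UMIs, and a median control member 3635, 4476 or 3017. The median mitochondrial percent was 2.63 and 2.27 at the peak and between 1.08 and 1.46 in controls. Both peak libraries and control b were sequenced in 1 pool, and controls a and c in 2 other pools. Of the cell barcodes of the members, 2 occurred in more than 1 of the 5 libraries.

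The annotation was checked against 10 microglial markers, all of which were measured in all 5 libraries. Their summed level was 31252, 25605 and 25697 CPM of library size in controls and 9209 and 9734 at the peak, with 7 of the 10 called lower. Defining T cell transcripts stayed near 0, with 0, 0 and 0 UMIs of Cd3d in the controls and 1 and 2 at the peak. Ccr2, the receptor that marks entering monocytes, had 6, 7 and 13 UMIs in the controls and 4 and 0 at the peak. The peak members thus carry microglial genes at a reduced level and almost no Cd3d or Ccr2 transcripts. Other monocyte markers were higher at the peak, with Fn1, Ly6c2, Plac8 and Ms4a4c called at 6.52 ± 0.58, 5.55 ± 1.14, 3.60 ± 0.69 and 2.57 ± 0.39, and their part in the results was not tested. Members were 99.2% ± 0.510 (SD, n = 3) of sorted resident cells in controls and 93.6% ± 2.92 (n = 2) at the peak. The exact permutation test (two-sided) gave p = 0.1, the smallest that 2 against 3 libraries can give.

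Of 11078 genes tested, 3326 were called, which is 30.0%. They split into 1768 higher at the peak (16.0%) and 1558 lower (14.1%), so 53.2% of calls were higher. These shares over all genes are the background for the counts called in each gene list below. A log2 fold change of at least 1 in size was reached by 1299 of the higher calls (11.7% of genes tested) and 1046 of the lower ones (9.44%). On library size alone, without TMM, 1093 were higher and 2662 lower, and the higher share was 29.1%. That scaling moved the median log2 fold change of all genes from -0.01 to -0.33. Between libraries of 1 group, log2 CPM over all genes correlated at 0.971 to 0.987 in controls and 0.972 at the peak, and between control and peak libraries at 0.836 to 0.872. The number of calls was 2211 without peak library a and 1876 without peak library b. With the pool as a term, the contrast rests on control b against both peak libraries. In that fit 2318 were called, and 2083 of these were among the 3326 in the same direction. No alternative called any of the 3326 genes in the opposite direction.

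**Figure D1:**
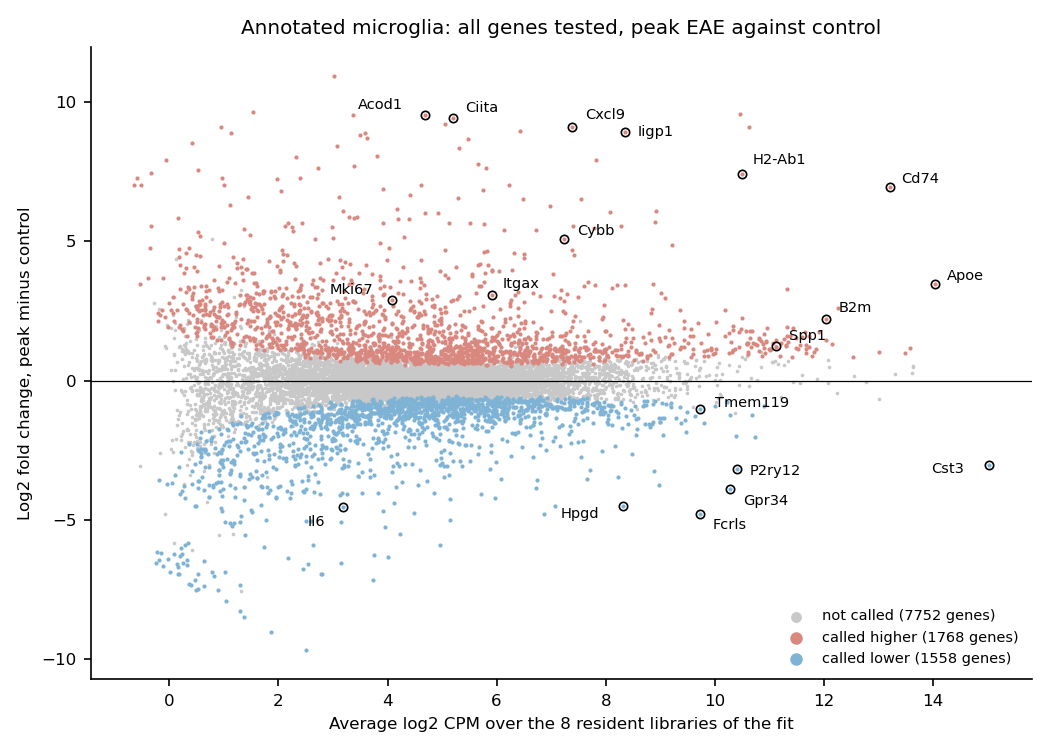
Each point is 1 of the 11078 genes tested, with its average log2 CPM over the 8 resident libraries of the fit on the x axis and its log2 fold change, peak minus control, on the y axis. The 1768 genes called higher reach further from 0 among well-measured genes (Cxcl9 at 9.10, H2-Ab1 at 7.40) than the 1558 called lower (Fcrls at -4.79, P2ry12 at -3.16).

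The genes with the smallest p among those higher at the peak were nearly silent in control members. Lilrb4a, an inhibitory receptor of myeloid cells, was at 0.769, 1.58 and 1.27 CPM in controls and 131 and 96.6 CPM at the peak (log2 fold change 6.54 ± 0.29, adjusted p = 6.27e-08). Slamf7, found on activated leukocytes, had 0.641, 0.862 and 0.594 CPM against 93.1 and 64.8 CPM (6.82 ± 0.33). P2ry14, a receptor for UDP-glucose, Hpse, which cuts heparan sulfate, and Itgal, the alpha chain of the leukocyte integrin LFA-1, rose by 7.77 ± 0.43, 8.66 ± 0.46 and 8.33 ± 0.54. For each of these the lowest peak library stood far above the highest control. P2ry14, Hpse and Itgal had only 14, 4 and 11 UMIs over all controls, so their SEs may be too small. Among the lower genes, Hpgd, which degrades prostaglandins, went from 766, 520 and 837 CPM to 31.3 and 31.4 CPM (-4.49 ± 0.35, adjusted p = 2.31e-06). Slc40a1, the iron exporter ferroportin, Mgll, which degrades the endocannabinoid 2-arachidonoylglycerol, and Gabbr1, a subunit of the GABA-B receptor, had log2 fold changes of -4.06 ± 0.32, -3.06 ± 0.29 and -3.45 ± 0.33. Jam2, Thrsp, Tmem176b and Serpinf1, also among the 12 lower genes with the smallest p, lay between -2.91 and -5.01. Groups did not overlap for any gene of this paragraph, which was part of the rule that named them.

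Interferon-inducible GTPases, some of which attack the membranes around intracellular parasites, rose throughout. All 18 tested members were called higher, with a median log2 fold change of 4.55 against -0.01 over all genes. Iigp1 stood at 1.15, 5.03 and 1.10 CPM in controls and 1178 and 1072 CPM at the peak (8.93 ± 0.72, adjusted p = 3.00e-06). Gbp2 rose from 7.56, 6.90 and 5.01 CPM to 397 and 773 CPM (6.51 ± 0.62). At the other end, Irgm2 was at 23.1, 34.2 and 18.8 CPM against 66.8 and 38.0 CPM (1.05 ± 0.28), the smallest change of the 18. Both peak libraries lay above all 3 controls for 18 of 18, where 27.3% of all genes tested did so. Most members share a chromosome with others, with 6 on chromosome 11 in separate places between 48861968 and 58222782 (GRCm38). There are 4 on chromosome 3 (142493978 to 142638008) and 4 on chromosome 5 (105014150 to 105293698). No source used here says how reads shared by close copies such as Tgtp1 and Tgtp2 or Irgm2 and Igtp were counted, so their separate values are uncertain.

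Promoters of this group are shown because their members moved together and interferon acts on such genes through known DNA elements. The elements searched were the GAS, as the core TTCNNNGAA, and the ISRE, as a pair of GAAA repeats with any 2 bases between them, both on either strand. Sequences are the 120 bases before a RefSeq start (GRCm38.p6), 5′ to 3′ on the gene's strand, in lower case with each match in capitals and overlapping matches run together. Irgm1 (chr11:48871421-48871540, minus strand) has 2 overlapping ISRE cores. Igtp (chr11:58199436-58199555, plus strand) and Irgm2 (chr11:58214857-58214976, plus strand) each have a GAS core followed by an ISRE core. Gbp2 (chr3:142620543-142620662, plus strand) and Gbp3 (chr3:142559924-142560043, plus strand, the first of its 2 starts) carry the ISRE core on the opposite strand, once in Gbp2 and as 2 overlapping cores in Gbp3. The window of the second Gbp3 start (chr3:142560236-142560355) has no match and is not shown. Gbp7 (chr3:142530216-142530335, plus strand) has 2 GAS cores and 1 ISRE core. The window of Gbp5, with a GAS core and no ISRE core, is not shown.
Irgm1: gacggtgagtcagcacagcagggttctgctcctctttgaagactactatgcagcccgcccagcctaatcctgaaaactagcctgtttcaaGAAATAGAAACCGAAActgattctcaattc
Igtp: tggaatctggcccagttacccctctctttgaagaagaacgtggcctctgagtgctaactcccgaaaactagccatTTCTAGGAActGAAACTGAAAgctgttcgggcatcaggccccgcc
Irgm2: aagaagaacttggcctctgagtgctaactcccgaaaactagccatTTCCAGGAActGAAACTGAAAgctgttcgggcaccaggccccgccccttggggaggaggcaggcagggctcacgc
Gbp2: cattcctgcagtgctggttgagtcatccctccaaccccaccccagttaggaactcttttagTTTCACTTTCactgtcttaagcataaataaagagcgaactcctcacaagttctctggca
Gbp3: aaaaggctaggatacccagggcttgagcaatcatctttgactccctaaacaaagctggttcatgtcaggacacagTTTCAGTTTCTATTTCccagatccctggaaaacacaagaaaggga
Gbp7: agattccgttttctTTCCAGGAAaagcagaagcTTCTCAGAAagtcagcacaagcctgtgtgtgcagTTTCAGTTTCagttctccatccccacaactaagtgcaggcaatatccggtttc

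In the whole RefSeq window, 250 bases before to 50 after the start, 9 of the 10 GTPase promoters given hold the ISRE core and 6 hold the GAS core. That of Ifi47 holds neither core. The shares among all 27025 genes with a RefSeq promoter are 3.99% and 9.55%. Of genes called higher, 8.53% hold the ISRE core (118 of 1383), against 3.31% of genes called lower (40 of 1209) and 3.22% of genes not called (203 of 6295). For the GAS core the 3 shares are 8.89%, 8.11% and 8.15%. Of antiviral genes 17 of 30 hold the ISRE core, and of MHC class I genes 4 of 14. It is held by 0 of 19 homeostatic microglial genes, but also by 0 of 7 MHC class II and 0 of 24 cell cycle genes. Cxcl9, Slamf7 and Tap1, which rose, hold neither core. A match is a string of letters and not a measured binding site.

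Upstream of these genes, the interferon pathway itself moved in both directions. Irf1, a transcription factor that interferon gamma induces, was at 53.5, 45.4 and 52.3 CPM in controls and 297 and 267 CPM at the peak (2.48 ± 0.32, adjusted p = 1.10e-04). Stat2 rose by 2.77 ± 0.36 and Irf7 by 3.15 ± 0.70. Socs1 and Socs3, which restrain Janus kinases, rose by 3.39 ± 0.52 and 2.61 ± 0.43. In the other direction, the receptor gene Ifngr1 was at 1022, 804 and 1134 CPM in controls and 228 and 327 CPM at the peak (-1.83 ± 0.29, adjusted p = 4.41e-04), and the kinase gene Jak1 had -0.93 ± 0.22. The other receptor genes Ifngr2, Ifnar1 and Ifnar2 were not called (-0.48 ± 0.23, 0.39 ± 0.23 and -0.66 ± 0.27), nor was Irf9 (0.22 ± 0.22). In all, 10 of 21 receptor, STAT and IRF genes were higher and 2 lower, with a median of 0.62, where 16.0% and 14.1% of all genes were. On library size alone these counts were 7 and 6, and by DESeq2 10 and 5. The promoters of Irf1 (chr11:53769894-53770013, plus strand, the first of its 2 starts) and Socs1 (chr16:10785537-10785656, minus strand) are shown as one activator and one inhibitor that rose, the former with a GAS core and the latter with 2 overlapping ISRE cores. The window of the second Irf1 start (chr11:53770353-53770472) has no match and is not shown.
Irf1: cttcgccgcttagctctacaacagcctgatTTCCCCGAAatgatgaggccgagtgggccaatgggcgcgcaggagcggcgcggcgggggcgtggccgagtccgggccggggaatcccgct
Socs1: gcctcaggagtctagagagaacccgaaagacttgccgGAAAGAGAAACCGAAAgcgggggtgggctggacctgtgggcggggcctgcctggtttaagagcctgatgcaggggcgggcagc

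Antiviral interferon genes rose almost as a block, with smaller changes than the GTPases. Of 38 tested, 35 were called higher and 0 lower, with a median of 2.14. Zbp1, a sensor of Z-form nucleic acids, went from 4.87, 12.8 and 4.33 CPM to 227 and 374 CPM (5.39 ± 0.63). Ifi211 rose by 5.63 ± 0.61, and Samhd1, which depletes nucleotides, by 2.15 ± 0.25. Oas3, which makes a second messenger when double-stranded RNA activates it, rose by 5.85 ± 0.75. Rtp4, Ddx58 and Slfn8 were not called (1.26 ± 0.46, 0.29 ± 0.21 and 0.38 ± 0.29). Control b, the control of the same pool as the peak libraries, had the highest level of the 3 controls for 38 of 38 members. It was highest for 39.8% of all genes tested. With the pool as a term the median was 1.45, and 28 of the 38 were called higher. Without control b the GTPase median was 5.25.

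**Figure D2:**
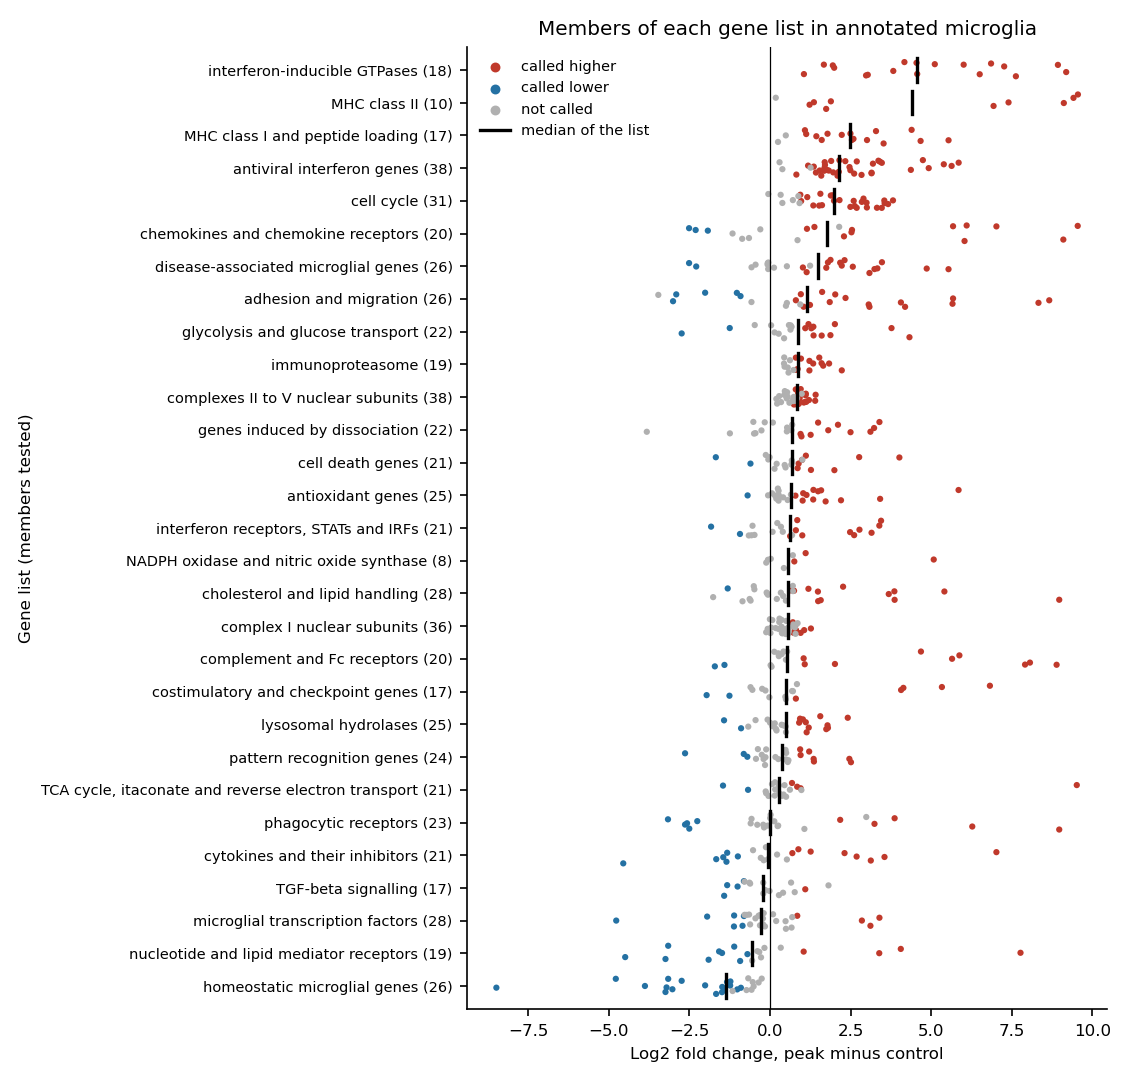
Each point is a tested member of 1 of the 29 gene lists, placed by its log2 fold change (peak minus control) and coloured by its call, and black bars are list medians. GTPases (4.55), MHC class II (4.41), MHC class I (2.49) and antiviral genes (2.14) stand at the top, and homeostatic microglial genes (-1.38) at the bottom.

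MHC class II, which shows peptides to CD4 T cells, went from low to high levels. Of 10 tested genes 9 were higher and 0 lower, with a median of 4.41. H2-Ab1, the class II beta chain (chromosome 17, 34257689 to 34269419, GRCm38), was at 30.6, 16.8 and 23.4 CPM in controls and 3505 and 4484 CPM at the peak (7.40 ± 0.49, adjusted p = 1.11e-06). Cd74, the invariant chain, was at 131, 49.0 and 85.2 CPM against 8690 and 12932 CPM (6.93 ± 0.77). H2-Eb1 and H2-Aa rose by 9.55 ± 0.69 and 9.12 ± 0.74. Ciita, the master activator of class II genes, had 5 UMIs in all controls together and 1326 at the peak, where it was at 163 and 111 CPM. The chaperone genes H2-DMa, H2-DMb1 and H2-DMb2, which load peptides, rose less, by 1.23 ± 0.26, 1.36 ± 0.31 and 1.89 ± 0.37. H2-Ob, an inhibitor of loading, was the exception at 0.18 ± 0.22. Without peak library b, 7 of the 10 were called.

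Genes of MHC class I, which shows peptides to CD8 T cells, rose as widely, from a higher base. Of 17 tested, 15 were higher and 0 lower, with a median of 2.49. H2-K1, a classical heavy chain, was at 466, 742 and 401 CPM in controls and 4539 and 5935 CPM at the peak (3.29 ± 0.33). B2m, the light chain, was at 1451, 2199 and 1244 CPM against 6795 and 8449 CPM (2.22 ± 0.32). Nlrc5, the activator of class I genes, rose by 4.67 ± 0.52, the peptide transporter gene Tap1 by 3.01 ± 0.30 and H2-Q4 by 3.52 ± 0.33. H2-M3 and Pdia3 were not called (0.49 ± 0.22 and 0.25 ± 0.39). Values of the H2-Q genes are uncertain, because these copies are close to each other.

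The proteasome makes the peptides that class I presents, and its genes rose in part. The inducible subunit gene Psmb9 was at 82.6, 98.6 and 80.4 CPM in controls and 335 and 480 CPM at the peak (2.23 ± 0.30), and Psmb8 rose by 1.83 ± 0.31. The third inducible subunit, Psmb10, and the activator genes Psme1 and Psme2 rose by 1.34 ± 0.32, 1.53 ± 0.38 and 1.65 ± 0.39. The structural subunit gene Psma5 rose by 1.6 ± 0.27. Of the constitutive subunits that the inducible ones replace, Psmb6 rose by 0.80 ± 0.28 and Psmb7 by 1.22 ± 0.24, and Psmb5 was not called (0.44 ± 0.28). Of all 19 subunit and activator genes 12 were higher and 0 lower, with a median of 0.86. All 19 were at higher levels in peak library b than in peak library a, and without peak library b 4 were called.

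Costimulatory and checkpoint genes did not move as 1 group. Of 17 tested, 5 were higher and 2 lower (4 and 4 on library size alone), with a median of 0.49. The shares over all genes were 16.0% and 14.1%. Cd274, which encodes the T cell inhibitor PD-L1, was at 7.69, 11.3 and 7.98 CPM in controls and 187 and 129 CPM at the peak (4.14 ± 0.32, adjusted p = 2.23e-06). Cd40, which receives help from T cells, rose by 4.07 ± 0.59, to 18.2 and 19.0 CPM. The main ligands of CD28 did not follow, since Cd86 was not called (0.71 ± 0.32) and Cd80 was lower (-1.26 ± 0.31). Vsir, which encodes the checkpoint protein VISTA, went from 1140, 695 and 868 CPM to 236 and 224 CPM (-1.97 ± 0.35). Pdcd1lg2, encoding PD-L2, had 1 UMI in controls and 21 at the peak, a ratio of 45.0 per UMI sequenced with an exact 95% interval of 7.23 to 1859. Exact intervals on such ratios use UMIs pooled over the libraries of a group and cover counting error only.

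Chemokines for T cells and monocytes were among the largest changes. Cxcl9, a ligand of the T cell receptor Cxcr3, was at 1.41, 0.287 and 1.02 CPM in controls and 524 and 516 CPM at the peak (9.10 ± 0.47, adjusted p = 1.46e-07). Its neighbour on chromosome 5, Cxcl10, was at 25.9, 4.17 and 3.22 CPM against 929 and 511 CPM (6.03 ± 0.80). Ccl5 rose from 9.74, 21.7 and 5.86 CPM to 510 and 745 CPM (5.68 ± 0.70). All 3 attract T cells, and no control library reached the lowest peak library for any of them. Ccl2, which draws Ccr2-bearing monocytes, was at 18.8, 32.6 and 8.23 CPM against 1691 and 1013 CPM (6.10 ± 0.77). The other genes of its cluster on chromosome 11 moved with it, with Ccl7 and Ccl12 higher by 7.02 ± 0.99 and 2.53 ± 0.59. Ccl8 had 0 UMIs in controls and 114 at the peak, at least 81.4-fold higher if the control group is set to a floor of 3 UMIs. The members that went down were Ccl6 (-2.51 ± 0.35), Ccl9 (-2.31 ± 0.35) and the receptor gene Ccr1 (-1.93 ± 0.34). Ccl3 rose by 1.15 ± 0.39, and Ccl4 and Cxcl13 were not called (0.85 ± 0.45 and 2.14 ± 1.14). In all, 11 of 20 tested were higher and 3 lower, with a median of 1.76.

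Cytokine genes split evenly, 8 higher and 6 lower of 21, with a median of -0.06, where 16.0% and 14.1% of all genes were. Tnf was at 12.2, 12.6 and 8.74 CPM in controls and 160 and 101 CPM at the peak (3.55 ± 0.47). Il18bp, which neutralises interleukin 18, rose by 7.02 ± 0.68, and Il27 by 3.13 ± 0.33. Il1b was at 4.49, 4.45 and 2.55 CPM against 40.0 and 8.95 CPM (2.69 ± 0.53, adjusted p = 0.00205), and without peak library a it was not called (1.24, adjusted p = 0.105). Il6 moved opposite to Tnf, with 522 UMIs in controls and 8 at the peak (-4.55 ± 0.64, adjusted p = 2.01e-04). Other lower genes were the interleukin 6 receptor gene Il6ra (-1.45 ± 0.30), Ebi3 (-1.35 ± 0.27), Il16 (-1.67 ± 0.24), Il15 (-1.0 ± 0.28) and Tgfb1 (-1.33 ± 0.31). Il1a was not called (-0.13 ± 0.21). Leaving out peak library b ended the call of Tgfb1 (-1.33, adjusted p = 0.0530).

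**Figure D3:**
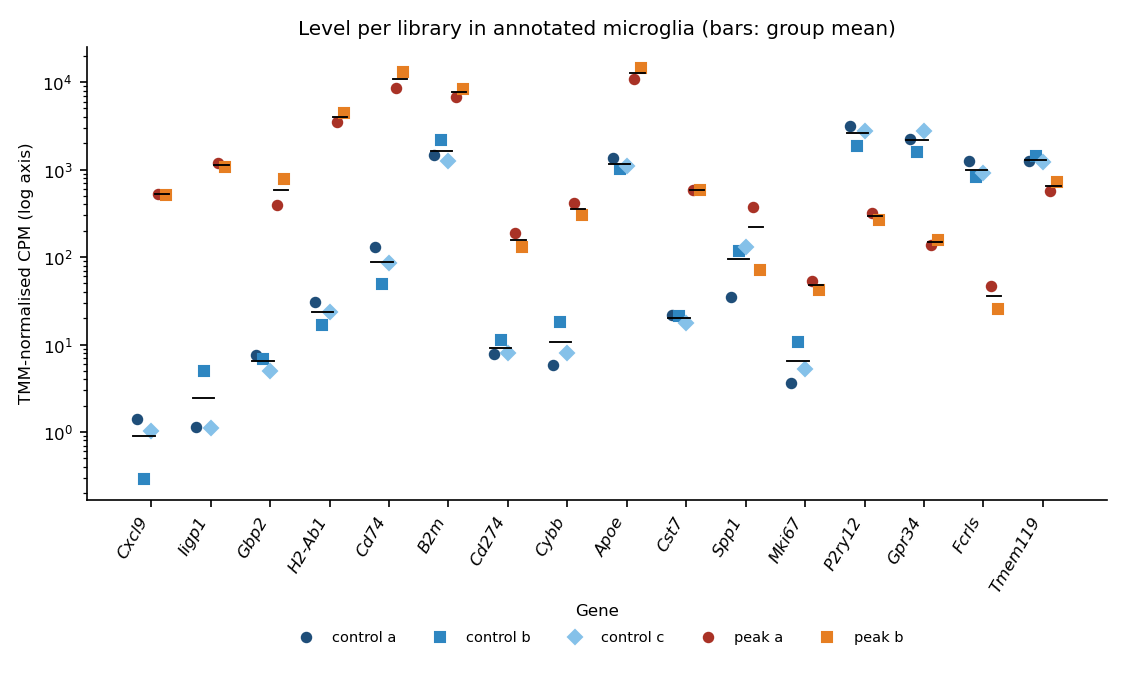
TMM-normalised CPM of 16 genes on a log axis, 1 marker per library and a bar at each group mean. Interferon, MHC and chemokine genes on the left are higher in both peak libraries, Spp1 overlaps between groups (71.1 CPM in peak library b against 132 in control c), and P2ry12, Gpr34 and Fcrls are lower.

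Homeostatic microglial genes, which mark the surveying state, had lower levels at the peak. Of 26 tested, 0 were higher and 18 lower, with a median of -1.38, and both peak libraries lay below all 3 controls for 25 of 26, where 28.8% of all genes did so. P2ry12, the receptor that guides processes to ADP, was at 3193, 1849 and 2796 CPM in controls and 322 and 263 CPM at the peak (-3.16 ± 0.35, adjusted p = 3.18e-05). Gpr34, a lysophosphatidylserine receptor, was at 2216, 1601 and 2760 CPM against 139 and 159 CPM (-3.88 ± 0.35). Fcrls was at 1246, 830 and 904 CPM against 46.8 and 25.4 CPM (-4.79 ± 0.47). Cst3, the protease inhibitor cystatin C, was at 64974, 37615 and 64253 CPM against 6352 and 7266 CPM (-3.03 ± 0.38). Gpr165 had 152 UMIs in controls and 0 at the peak, at least 23.7-fold lower with the same floor of 3 UMIs over the group. Changes were smaller for Tmem119, at 1256, 1424 and 1220 CPM against 563 and 721 CPM (-1.02 ± 0.28, adjusted p = 0.0149), and for Csf1r, the receptor on which microglia depend for survival (-0.91 ± 0.27). Tmem119 was not called without peak library a (-0.86, adjusted p = 0.107). Sall1, Cx3cr1 and Trem2 were not called (-0.73 ± 0.29, -1.16 ± 0.44 and -0.57 ± 0.27). The number of the 26 called lower was 13 without peak library a, 14 without peak library b and 24 on library size alone.

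CPM is a share of a library, and members at the peak held more UMIs per cell (means of 8635 and 8994 against 3841, 4713 and 3191). The same genes were therefore also read as mean UMIs per cell, with no test. On that scale both peak libraries were below all 3 controls for 12 of the 26 homeostatic genes, where 6.45% of all genes tested were, and above them for 1 (Entpd1). The 12 were P2ry12, Gpr34, Fcrls, Ltc4s, Cst3, Ecscr, Slc2a5, Gpr165, Selplg, Adgrg1, Rhob and P2ry13. P2ry12 was at 14.1, 11.2 and 10.2 UMIs per cell in controls and 2.91 and 2.04 at the peak, and Gpr34 at 9.77, 9.70 and 10.0 against 1.26 and 1.23. Tmem119, in contrast, was at 5.54, 8.63 and 4.44 UMIs per cell against 5.10 and 5.61, and Csf1r at 14.6, 13.8 and 8.47 against 12.6 and 11.1. For these and for Sall1, Cx3cr1, Trem2, Olfml3, Sparc and Siglech the groups overlapped. So some homeostatic genes were lower on both scales and others only as a share of the cell's transcripts. Whether cells at the peak held more RNA or were read more deeply was not tested. For all 18 GTPase, 17 class I and 10 class II genes both peak libraries were above all controls per cell, as were 61.7% of all genes tested.

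**Figure D4:**
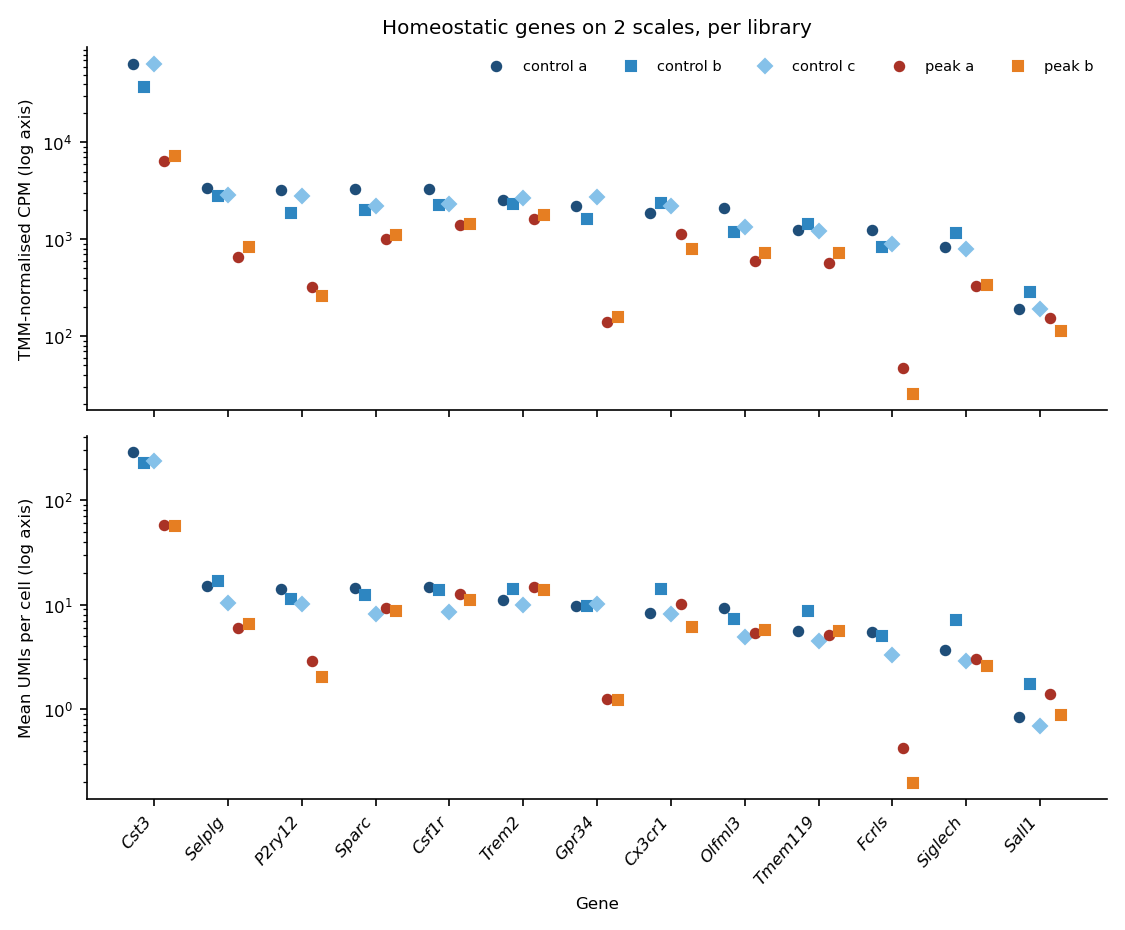
Levels of 13 homeostatic genes per library on log axes, as TMM-normalised CPM above and as mean UMIs per cell below. P2ry12, Gpr34, Fcrls and Cst3 are lower at the peak in both panels, while Tmem119 (5.10 and 5.61 UMIs per cell at the peak against 4.44 to 8.63 in controls), Csf1r and Trem2 overlap in the lower one.

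Of 28 transcription factor genes of microglia, 4 were higher and 6 lower, with a median of -0.27. These shares are near those over all genes (16.0% and 14.1%), and the counts were 2 and 9 on library size alone, and 1 and 4 without peak library a. Sox4 was at 306, 201 and 235 CPM in controls and 12.3 and 6.03 CPM at the peak (-4.77 ± 0.46). Maf and Mef2c, 2 factors linked to the mature resting state, had log2 fold changes of -1.95 ± 0.37 and -1.12 ± 0.24. Bhlhe40 rose by 2.85 ± 0.40 while its relative Bhlhe41 was lower (-0.85 ± 0.30), and Irf8, which microglia need to develop, rose by 0.84 ± 0.26. The lineage factor gene Spi1, encoding PU.1, was not called (-0.20 ± 0.27). Of 17 TGF-beta genes 1 was higher and 4 were lower, with a median of -0.21, beside the same 16.0% and 14.1% over all genes. The receptor gene Tgfbr1 was at 1048, 1043 and 1174 CPM against 500 and 311 CPM (-1.42 ± 0.34, adjusted p = 0.00635). Leaving out peak library b ended that call (-1.12, adjusted p = 0.0821). Its partner Tgfbr2 was not called (-0.02 ± 0.28).

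Disease-associated microglial genes, a set described in neurodegeneration, rose in part. Of 26 tested, 15 were higher and 2 lower, with a median of 1.49. Apoe, a lipid carrier, was at 1346, 1024 and 1086 CPM in controls and 10878 and 14682 CPM at the peak (3.47 ± 0.30, adjusted p = 4.98e-06). Cst7 rose by 4.86 ± 0.44, Itgax by 3.08 ± 0.29, Lgals3 by 3.33 ± 0.36, Axl by 3.24 ± 0.38 and Clec7a by 2.18 ± 0.27. Gpnmb, a gene of lipid-laden macrophages, rose by 5.54 ± 0.71 but from 0.641, 0.431 and 0.679 CPM to only 9.54 and 46.9 CPM. Spp1, encoding osteopontin, was at 34.7, 116 and 132 CPM against 375 and 71.1 CPM. Peak library a was above all controls and peak library b within their range, and Spp1 was not called (1.24 ± 0.58, adjusted p = 0.122). It was called with cells thinned to 1500 UMIs (2.41, adjusted p = 0.00503) and without a filter on low counts (1.21, adjusted p = 0.00505). Its log2 fold change was -0.41 without peak library a and 1.99 (adjusted p = 0.0235) without peak library b. Lpl, Cd9, Tyrobp, Igf1 and Cd68 were not called either, with log2 fold changes between -0.45 and 0.12.

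Among genes of lipid handling, several of uptake and export rose, and the synthesis genes named here did not pass the test. The scavenger receptor gene Cd36 was at 0.769, 0.575 and 0.339 CPM in controls and 287 and 265 CPM at the peak (8.97 ± 0.61). Apoc1, Msr1 and Fabp3 rose by 5.41 ± 0.33, 3.86 ± 0.40 and 3.68 ± 0.49, and the exporter gene Abcg1 by 1.49 ± 0.30. Ch25h, which makes 25-hydroxycholesterol, rose by 3.86 ± 0.56, while Cyp27a1, which makes 27-hydroxycholesterol, was lower (-1.31 ± 0.29). The cholesterol synthesis genes Hmgcs1 and Sqle were not called (-0.51 ± 0.27 and -0.86 ± 0.37). Together 12 of 28 were higher and 1 lower, with a median of 0.57. Of 25 lysosomal genes 11 were higher and 2 lower, with a median of 0.49. Ctsb, Grn and Cd63 rose by 1.74 ± 0.31, 1.78 ± 0.32 and 1.80 ± 0.30, Ctsf was lower (-1.43 ± 0.25), and Ctss and Lamp1 were not called (0.49 ± 0.35 and 0.49 ± 0.29).

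The complement genes divided by their place in the cascade. C1qa, C1qb and C1qc, the recognition subunits that healthy microglia make, were not called (0.53 ± 0.28, 0.27 ± 0.30 and 0.25 ± 0.32). Later components rose from almost nothing: C4b was at 1.54, 5.89 and 0.849 CPM in controls and 535 and 712 CPM at the peak (7.91 ± 0.70), and C3 rose by 5.65 ± 0.52. C2 and Cfb, the proteases of the classical and alternative convertases, rose by 5.87 ± 0.79 and 8.06 ± 1.10. The inhibitor Serping1 had 2 UMIs in controls and 433 at the peak, a ratio of 464 with an exact 95% interval (counting error only) of 128 to 3840. Fc receptors also divided, with Fcgr4 at 16.0, 16.4 and 15.1 CPM against 316 and 496 CPM (4.68 ± 0.39), Fcgr2b higher by 1.08 ± 0.24, and Fcgr1 and Fcgr3 not called (0.13 ± 0.26 and 0.02 ± 0.26). In all, 9 of 20 were higher and 2 lower, with a median of 0.51.

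Phagocytic receptors gave 5 higher and 5 lower of 23, near the shares over all genes (16.0% and 14.1%), with a median of 0.00 that was negative on library size alone. Cd300lf rose by 6.27 ± 0.51, whereas its relative Cd300a and the lectin genes Clec4a2 and Clec4a3 were lower (-2.51 ± 0.27, -3.17 ± 0.34 and -2.58 ± 0.37). Mertk and Stab1 were not called (0.23 ± 0.31 and 0.02 ± 0.24). Of 24 pattern recognition genes 7 were higher and 3 lower, with a median of 0.37, where 16.0% and 14.1% of all genes were. Cd14, the lipopolysaccharide co-receptor, was at 574, 382 and 512 CPM in controls and 90.6 and 66.7 CPM at the peak (-2.64 ± 0.29), and Tlr4 was not called (-0.14 ± 0.22). The cytosolic sensor genes Nod1 and Nod2 and the caspase gene Casp4 rose by 2.51 ± 0.31, 2.46 ± 0.41 and 1.36 ± 0.25. Of 19 receptor and enzyme genes for nucleotides and lipid mediators, 9 were lower and 4 higher, with a median of -0.56. As UMIs per cell, both peak libraries were below all controls for 6 of the 19 and above them for 8. On that scale 6.45% of all genes tested were below and 61.7% above. The leukotriene synthase gene Ltc4s and the leukotriene receptor gene Cysltr1 were lower (-3.24 ± 0.35 and -1.91 ± 0.23), and the prostaglandin E2 receptor gene Ptger4 rose by 3.39 ± 0.39.

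The title of the series names reverse electron transport, in which electrons run backwards into respiratory complex I, so genes of the respiratory chain are given here for microglia. Of 36 nuclear complex I subunits, 9 were higher and 0 lower, with a median of 0.55. Among all genes tested, 16.0% were higher and 14.1% lower. Ndufs6 was at 42.6, 52.4 and 47.5 CPM in controls and 94.5 and 134 CPM at the peak (1.27 ± 0.24, adjusted p = 0.00163). Ndufa12, Ndufs4 and Ndufa1 rose by 0.95 ± 0.24, 0.80 ± 0.22 and 1.06 ± 0.33. The catalytic core genes Ndufs1, Ndufv1 and Ndufv2 were not called, with log2 fold changes between -0.12 and 0.38. The peak libraries differed here: the summed level of the 36 was 4232, 3680 and 4350 CPM of library size in controls and 3918 and 5303 in peak libraries a and b. Without peak library b the median was 0.12 and 1 of 36 was called, and without peak library a they were 0.85 and 15. With peak library b left out, Ndufa12 was at 0.52 (adjusted p = 0.167), Ndufs4 at 0.49 (0.198) and Ndufa1 at 0.75 (0.227). Ndufs4 and Ndufa1 were also lost on library size alone (adjusted p = 0.0969 and 0.0598), where 2 of 36 were called. Leaving out control a, b or c gave 2, 3 and 3 called, with Ndufs4 lost without control a or c (adjusted p = 0.0632 and 0.0559) and Ndufa1 without control a or b (0.0554 and 0.0709).

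Complexes II to V gave 19 of 38 higher and 0 lower, with a median of 0.82. Cox7b of complex IV was at 107, 99.7 and 105 CPM against 211 and 343 CPM (1.41 ± 0.26), and Atp5b of the ATP synthase at 141, 176 and 137 CPM against 271 and 526 CPM (1.40 ± 0.27). Atp5l and Cox8a rose by 1.11 ± 0.27 and 1.12 ± 0.28, and were not called without peak library b (0.73 and 0.77, adjusted p = 0.113 and 0.118). On library size alone the median was 0.47 and 11 of 38 were called. Without peak library b the median was 0.46 and 2 of 38 were called, and without control a or b 9 and 12 were. Sdha, which holds the active site of succinate dehydrogenase, was not called (0.28 ± 0.20). Subunits encoded in mitochondrial DNA were not measured, since the matrix held 0 such features.

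Acod1, which makes itaconate, an inhibitor of succinate dehydrogenase, had 2 UMIs in controls and 639 at the peak. The ratio per UMI sequenced was 684, with an exact 95% interval of 189 to 5660 that covers counting error only. Of 21 tricarboxylic acid cycle genes and relatives, Acod1 among them, 4 were higher and 2 lower, near the shares over all genes (16.0% and 14.1%). Their median was 0.28 and was negative on library size alone. Idh2 was lower (-1.46 ± 0.28), and Ogdh and Cs rose by 0.95 ± 0.21 and 0.68 ± 0.20. Ogdh was lost on library size alone and with the pool as a term (adjusted p = 0.0617 and 0.0678), and Cs under 7 alternatives, among them each peak library left out (adjusted p = 0.0607 without peak library a and 0.0981 without peak library b) and controls a and c (0.0686 and 0.0872). Among 8 tested genes of the NADPH oxidase and its partners, which make superoxide, 3 were higher and 0 lower. Their median was 0.57, and 16.0% of all genes were higher and 14.1% lower. Cybb, the catalytic subunit, was at 5.77, 18.1 and 8.06 CPM in controls and 411 and 300 CPM at the peak (5.08 ± 0.39, adjusted p = 2.23e-06). Its membrane partner Cyba was not called (0.71 ± 0.29), though it was with the pool as a term (1.12, adjusted p = 0.0417) and by DESeq2 (0.71, adjusted p = 0.0307). Also not called was the cytosolic subunit Ncf4 (-0.12 ± 0.23). Rac2 and Ncf1 rose by 1.10 ± 0.33 and 0.75 ± 0.23, and neither held without control c (1.08 and 0.70, adjusted p = 0.0715 and 0.0929). Rac2 was also lost without control b (1.03, adjusted p = 0.0543) and peak library b (0.53, 0.338), and Ncf1 without control a (0.68, 0.106) and peak library a (0.56, 0.165). Nos2, the inducible nitric oxide synthase, had too few counts to be tested.

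Glycolysis genes rose for 11 of 22, fell for 2 and had a median of 0.88. Pfkp, an isoform of phosphofructokinase, and the glucose transporter gene Slc2a6 rose by 4.33 ± 0.38 and 3.77 ± 0.45. Pkm, Aldoa, Ldha and Gapdh rose by 2.01 ± 0.38, 1.34 ± 0.33, 1.28 ± 0.30 and 1.35 ± 0.43, and hexokinase genes differed, with Hk3 higher (1.87 ± 0.27), Hk1 lower (-1.25 ± 0.30) and Hk2 not called (-0.48 ± 0.27). The fructose transporter gene Slc2a5 was lower (-2.74 ± 0.35). Of 25 antioxidant genes 12 were higher and 1 lower, with a median of 0.65, and 5 were higher without peak library b. Txn1, encoding thioredoxin, was at 53.8, 55.5 and 53.0 CPM in controls and 396 and 757 CPM at the peak (3.42 ± 0.29). Sod1 and Sod2, the cytosolic and mitochondrial superoxide dismutases, rose by 1.49 ± 0.20 and 1.35 ± 0.28, and the sensor pair Nfe2l2 and Keap1 was not called (0.24 ± 0.25 and 0.16 ± 0.24).

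Cell cycle genes were higher for 25 of 31 and lower for 0, with a median of 1.98. Mki67, which cycling cells hold, was measured at 3.59, 10.6 and 5.26 CPM in controls and 53.2 and 42.6 CPM at the peak (2.90 ± 0.45, adjusted p = 4.02e-04). The mitotic genes Birc5 and Cenpe rose by 3.56 ± 0.55 and 3.66 ± 0.55, the replication clamp gene Pcna by 1.34 ± 0.22 and Hmgb2 by 1.88 ± 0.24. The cycle inhibitor gene Cdkn1a also rose (1.15 ± 0.35), and Ccnd1 and Mcm7 were not called (0.38 ± 0.21 and -0.05 ± 0.21). Without peak library b, 13 of the 31 were called higher. Genes of adhesion and migration gave 16 higher and 5 lower of 26, with a median of 1.14. Vcam1, a ligand of integrins, was at 6.79, 6.18 and 5.18 CPM against 120 and 99.7 CPM (4.19 ± 0.29). The hyaluronan receptor gene Cd44 rose by 4.06 ± 0.31 and the integrin gene Itga4 by 2.02 ± 0.33, and Selplg and S1pr1 were lower (-2.01 ± 0.29 and -3.01 ± 0.39). Of 21 cell death genes 8 were higher and 2 lower, with a median of 0.67. The death receptor gene Fas and the necroptosis gene Mlkl rose by 2.77 ± 0.41 and 4.01 ± 0.78, Bcl2a1d by 2.00 ± 0.29 and Daxx by 1.27 ± 0.22, and the pro-apoptotic gene Bcl2l11 was lower (-1.68 ± 0.33).

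Shares of members with a UMI show whether a change was spread over the cells. Each cell was thinned to 1500 UMIs, which kept 6085 of 6155 control and 1161 of 1190 peak members. H2-Ab1 was seen in 4.00%, 2.28% and 3.00% of control members and 93.5% and 93.1% of peak members. Apoe was seen in 41.4%, 28.2% and 27.2% against 89.5% and 88.1%. Both genes were thus detected in nearly every peak cell. Iigp1 was seen in 0.172%, 0.790% and 0.0938% of controls and 62.3% and 55.1% at the peak. Cybb was in 0.915%, 2.28% and 0.719% against 39.7% and 28.1%. Cxcl9 was detected in a minority of peak cells, 28.9% and 24.6%, against 0.114% in control a, 0 of 1139 cells in control b (which allows up to 0.263%) and 0.0625% in control c. Ciita was in 18.8% and 12% of peak members, and Mki67 in 4.39% and 2.34% against 0.172%, 0.439% and 0.219%.

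P2ry12 was detected in 98.0%, 95.2% and 97.3% of control members and 35.6% and 25.6% of peak members at this depth. Without thinning the means were 99.4% and 70.6%, so most peak members still held P2ry12 transcripts. Tmem119 was in 86.7% ± 2.90 against 55.4% ± 0.925. Gpnmb stayed rare, at 1.05% and 2.20% of peak members, and Spp1 was in 13.8% of members of peak library a and 4.98% of peak library b against 1.49% to 1.84% in controls. Spp1 was therefore in a larger share of cells of both peak libraries than of any control, while its CPM in peak library b lay within the control range. Ccr2 was in 0.142% ± 0.128 of control and 0.105% ± 0.148 of peak members. The exact permutation test (two-sided) gave p = 0.1 for 12 of the 13 genes, adjusted to 0.108 over the 13, and 0.8 for Ccr2, and 0.1 is the smallest this design allows. Without thinning the means for H2-Ab1, Cxcl9, Apoe and Iigp1 were 8.01% against 98.0%, 0.154% against 45.3%, 48.9% against 97.3% and 0.647% against 83.3%.

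Free RNA in droplets was gauged in the 16 T cells of the peak libraries, which had a median of 5785.5 UMIs and should lack most of these genes. Thinned in the same way, 25% of them held H2-Ab1, 25% Apoe, 12.5% Iigp1 and 6.25% Cxcl9, and 0 held P2ry12, Ciita or Spp1. Each of the first 4 shares was below that of the peak members, but with 16 cells their 95% intervals are wide, and that of Cxcl9 (1.11% to 28.3%) reaches above the 24.6% of peak library b. For a gene held by 0 of the 16 cells the interval reaches 19.4%, above the shares of Ciita and Spp1 in both peak libraries. Intervals on shares cover counting error only.

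**Figure D5:**
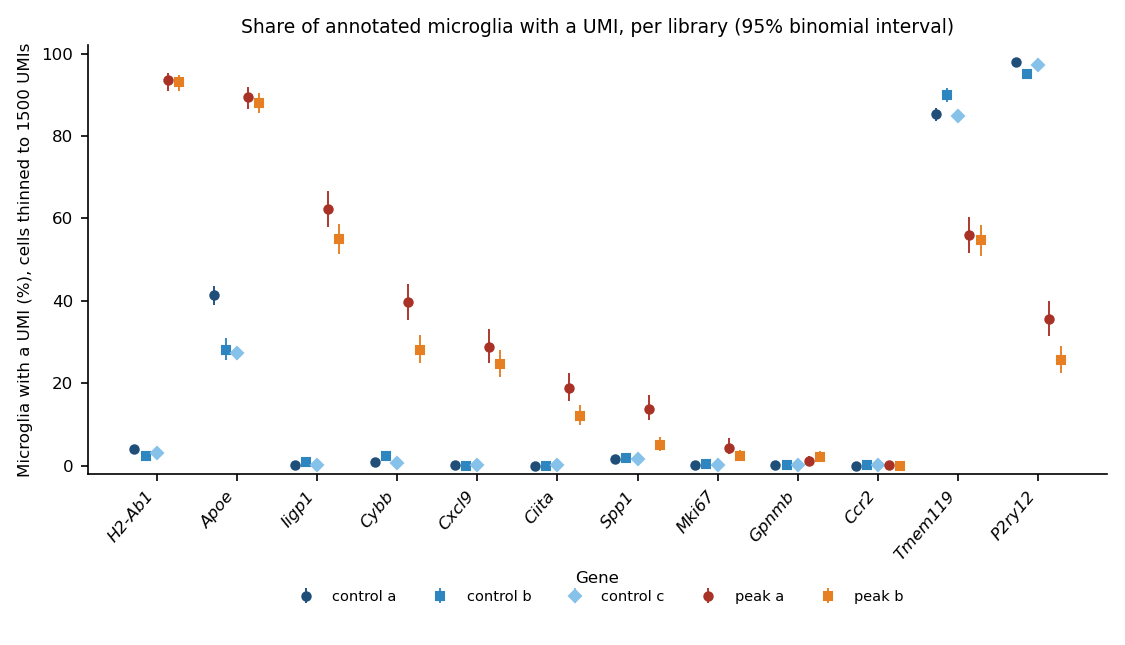
Percent of members with at least 1 UMI after thinning each cell to 1500 UMIs, for 12 genes and 5 libraries, with 95% Wilson intervals that cover counting error only. H2-Ab1 and Apoe are in at least 88.1% of peak members, Cxcl9 in 24.6% and 28.9%, Ccr2 in almost none, and P2ry12 drops to 25.6% and 35.6%.

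Several measures of cell handling and of other cell types moved with the comparison. Genes induced by dissociation were higher for 10 of 22 and lower for 0, with a median of 0.68. On library size alone 5 were higher and 2 lower, and 5 were higher without control a and 6 without peak library b. Fos was at 0.641, 16.2 and 0.339 CPM in controls and 62.2 and 31.1 CPM at the peak, and Egr1 at 2.95, 39.7 and 2.29 CPM against 211 and 94.3 CPM, so control b lay nearer to the peak libraries than controls a and c did. Zfp36 and Dusp1 were called (1.49 ± 0.35 and 2.11 ± 0.50) but not with the pool as a term (0.81 and 1.12, adjusted p = 0.0849 and 0.0763) or without peak library a (1.10 and 1.54, 0.0892 and 0.113). Without peak library a, Egr1 was not called (2.68, adjusted p = 0.0801) and 2 of the 22 were. Their part in the other results was not tested.

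Of 12 monocyte markers 5 passed the filter on low counts, which also used the chronic libraries. Of these 5, 4 were called higher at the peak and 0 lower. Fn1, encoding fibronectin, had 5, 2 and 12 UMIs in controls and 235 and 429 at the peak, Ly6c2 1, 0 and 0 against 8 and 17, and Plac8 15, 28 and 5 against 37 and 215. The summed level of the list was 21.6, 33.4 and 15.2 CPM of library size in controls and 113 and 196 at the peak, and Ccr2 was near 0 in both. Of 10 markers of border macrophages 1 was higher, Ms4a7, with 7, 0 and 3 UMIs against 29 and 36. Few markers of T, natural killer and B cells passed that filter (2 of 11, 1 of 7 and 2 of 6), and of these 1, 1 and 2 were called lower and 0 higher. The T cell gene was Il7r, with 724, 517 and 940 UMIs in controls and 21 and 21 at the peak. Neuron markers summed to 9.86, 4.62 and 9.78 CPM in controls and 0.238 and 0.632 at the peak, and oligodendrocyte markers to 230, 173 and 171 against 86.0 and 93.0. The share of members with a UMI of another cell type's defining marker was 1.02%, 1.13% and 0.741% in controls and 3.50% and 3.98% at the peak. Leaving these cells out gave 3279 calls and kept all 128 named calls.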

How the data were processed

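The authors deposited raw UMI counts for every gene and cell in 1 matrix. The submitters' processing notes name Cell Ranger 3.1.0, R 4.1.3 and the builds GRCm38 and mm10, and the gene annotation and its counting rules are not given in the sources used here. The deposited cell table gives class, library, pool and doublet status (0 cells were marked), a mitochondrial percent that reached 5.00, and the log10 of total UMIs, which matched the matrix. It does not carry the labels' replicate numbers, so libraries are called a, b and c as names only. The number of value columns that could not be mapped was 0. Of 1632 features listed by identifier, 1556 were given a symbol through GENCODE M21.

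Counts were summed over members per library and fitted with edgeR 4.0.16 (R 4.3.3) with filterByExpr, TMM and the quasi-likelihood F test. The 3 chronic EAE resident libraries were outside the contrast but shared the estimate of spread. The fit left 5 residual degrees of freedom and, between libraries, a coefficient of variation of 21.4%. The chronic libraries also entered the filter on low counts, TMM and the average level used to name genes. A gene could thus be tested with few UMIs in the control and peak libraries. Adjustment was over all 11078 genes. CPM sums over lists used library size alone. Thinning, exact permutation tests, Wilson intervals and exact intervals used numpy 2.4.6 and scipy 1.17.1. The script was tested on simulated data. Promoters came from RefSeq (GRCm38.p6), and 8887 of the 11078 genes had one. No doublet caller was run.

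The members, the 29 gene lists and the 13 marker lists were chosen with earlier results of these data known, so no list is independent evidence and none was given a set test. Named genes were up to 12 higher and 12 lower with the smallest p whose groups did not overlap and whose log2 fold change was 1 or more in size. Their average level over the 8 libraries of the fit was 5 or more on the log2 CPM scale. To these came up to 4 members of each list by p, and a fixed set. The first part left out sex-linked Xist, genes of the Y chromosome, predicted genes and those of ribosomal proteins. Further list members are named to describe their list. Alternatives were scaling by library size, no filter, 5 libraries only, libraries with at least 50 microglia, the pool as a term, thinned cells, all resident cells, cells without another type's marker, each library left out, and DESeq2 1.42.0. Some genes of the lists are not reported here.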

Additional observations from a re-analysis of the deposited data

Results flagged for a closer look

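The infiltrating libraries of the peak, which the comparison did not use, held 20 cells that the deposited annotation also calls microglia (18 and 2 cells, 57906 UMIs together). In their pooled counts the 5 genes given next were above the pooled control members, on library size alone, as they were in resident members. Mki67, also higher in resident members, had 0 UMIs here, which allows up to 63.7 CPM by the same interval, against 7.28 in pooled controls. H2-Ab1 was at 1675 CPM (exact Poisson 95% interval 1358 to 2044) against 28.0 in pooled controls and 3797 in pooled resident peak members. Cd74 was at 10362 CPM (9549 to 11225), against 105 in controls and 10358 in resident peak members. Apoe was at 8825 CPM (8076 to 9624) against 1350 and 12183. Iigp1 was at 760 CPM (552 to 1020) against 2.53 and 1050. Cxcl9 was at 104 CPM (38.0 to 226) on 6 UMIs, all from 1 library, against 1.11 and 488. P2ry12 was at 207 CPM (107 to 362), against 3137 in controls and 271 in resident peak members. The library with 18 cells gave all UMIs of H2-Ab1, Cxcl9 and P2ry12. It also gave 595, 503 and 40 UMIs of Cd74, Apoe and Iigp1, against 5, 8 and 4 from the other library. Of the 18 and 2 cells, 27.8% and 50.0% held a UMI of another cell type's marker. The intervals cover counting error only, and no test was made.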

How the results depend on the processing

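No paired analysis was possible because the deposited cell table carries no replicate numbers for the libraries. All 3326 calls rest on 2 peak libraries, both from 1 pool, so pool and stage are told apart only through control b. Calls, calls higher and calls lower ranged from 1876 to 3340, 1070 to 1828 and 806 to 1512 with 1 library left out. Scaling by library size gave 1093 higher and 2662 lower. With cells thinned to 1500 UMIs, 2190 were called, 944 of them lower. The other alternatives stayed within 1.5 times, with 3751 calls without a filter, 3657 with the 5 libraries alone, 3264 with all libraries of at least 50 microglia, 2318 with the pool as a term, 3179 with all resident cells and 3291 by DESeq2. Of 128 named calls, 6 were lost on library size only, 6 with the pool as a term, 2 when thinned, 4, 2 and 4 without control a, b and c, and 7 and 9 without peak library a and b. DESeq2 lost none and gave Egr1 no adjusted p. The direction turned for Spp1 (-0.41 without peak library a, against 1.99 without peak library b) and for the share of cells with Ccr2, whose difference was -0.0373 points and became 0.0168 without control c, 0.0673 without peak library b and -0.142 without peak library a. Sall1 and Cx3cr1 were called under some alternatives, among them the 5 libraries alone and no filter. The cause of these changes was not tested.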
